A study of Mus musculus with 6 samples.

Results

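Acetylcholine is made from choline and acetyl-CoA by choline acetyltransferase, is packed into vesicles, acts on muscarinic and nicotinic receptors, and is split by cholinesterases. Tuft cells, chemosensory epithelial cells of mucosal surfaces that also occur in the thymic medulla, are among the few epithelial cells known to carry choline acetyltransferase. Here 7 cholinergic genes are described in thymic tuft cells, out of 55471 genes in the deposited table. They were taken by gene symbol as genes of synthesis (Chat), choline uptake (Slc5a7), vesicle loading (Slc18a3), breakdown (Ache, Bche) and reception (Chrm3, Chrnb1) of acetylcholine. The choice was made with earlier results of these data known.

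RNA was measured by sequencing in tuft cells sorted from mouse thymus on the surface protein L1CAM. The Ko libraries (n = 3) are read as Foxn1-Cre (+)/Ikzf1fl/fl mice, given as KO, and the Het libraries (n = 3) as Foxn1-Cre (-)/Ikzf1fl/fl mice, given as WT. All mice thus carried floxed Ikzf1, which encodes the transcription factor Ikaros, and Foxn1-Cre acts in thymic epithelium. The columns are named Ko1 to Ko3 and Het1 to Het3; no label uses Het, which was matched to WT by elimination, with ages and cell numbers per library not given in the sources used here. No label ties a library to an animal, so the p-values reflect only how these samples vary, which may be technical. Library totals were 12238428 to 17140843 reads in Ko and 12429260 to 31435787 reads in Het libraries. Ikzf1 itself, the floxed gene, stood at 1584 ± 128 normalized counts in the libraries labelled Ko and 254 ± 59.7 in Het libraries (SD, n = 3 each), higher in Ko by 2.66 ± 0.30 on the log2 scale (SE; limma adjusted p = 0.0105). A lower Ikzf1 RNA level in Ko was thus not seen, which goes against that label; the deleted exons are unnamed in the labels, gene-level counts cannot show their loss, and every direction is between libraries as labelled. All 25 genes of a tuft cell marker list were detected and tested, with summed levels of 274630, 288079 and 333579 in Ko1, Ko2 and Ko3 and 263370, 230857 and 197961 normalized counts in Het1, Het2 and Het3, so the groups did not overlap in that sum. The separation came from 1 marker, Rgs13, named after its values were seen, which was at 68079, 78565 and 98061 in Ko libraries and 34571, 29287 and 32157 in Het libraries (limma adjusted p = 0.00868). Without it the other 24 markers summed to 206551, 209514 and 235518 in Ko1, Ko2 and Ko3. In Het1, Het2 and Het3 they summed to 228799, 201570 and 165804, and the groups overlapped. Limma called 3 of the 25 markers, 2 higher and 1 lower, against 0.814% of all tested genes. Besides Rgs13 these were Ptgs1, higher in Ko (limma adjusted p = 0.0264), and Gnb3, lower in Ko (0.0341), and both stayed among the 24. The groups did not overlap for 8 of the 25 markers, against 18.4% of all tested genes.

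Chat and Slc18a3 form 1 locus on chromosome 14. Slc18a3 lies inside Chat on the same strand, their RefSeq starts are 1059 bases apart, and their annotated exons share 0 bases. The sequences before both starts are shown because the adjacent genes were read at very different levels. Both come from RefSeq (GRCm38.p6, a build other than the GRCm39 of the authors), run 5′ to 3′ on the minus strand and have CG pairs in capitals. Bases that GENCODE M21 places in an exon of either gene were left out.
Chat (chr14:32465990-32466159): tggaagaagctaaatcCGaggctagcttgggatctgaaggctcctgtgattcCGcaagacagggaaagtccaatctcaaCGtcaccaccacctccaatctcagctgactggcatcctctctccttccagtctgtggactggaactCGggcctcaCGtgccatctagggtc
Slc18a3 (chr14:32464851-32465100): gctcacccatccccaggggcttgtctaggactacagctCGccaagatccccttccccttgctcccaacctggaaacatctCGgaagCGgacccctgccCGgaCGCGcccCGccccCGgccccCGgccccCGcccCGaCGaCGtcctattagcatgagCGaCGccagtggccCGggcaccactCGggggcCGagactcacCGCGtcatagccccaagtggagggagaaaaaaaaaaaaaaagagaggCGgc
The stretch before Chat held 5 CG pairs in 170 bases (2.94 per 100 bases), and that before Slc18a3 held 21 in 250 bases (8.40 per 100 bases). In the promoter windows of all 7 genes (250 bases before to 50 after the start), the letters TGGGAA, 1 form of the core bound by Ikaros, were sought. They occurred on either strand in 0 of 7, against 25.6% of 32851 windows of this length. The shorter letters GGGAA, on either strand, occur in both printed stretches and were not counted over the windows. The letters ATGCAAAT, the octamer bound by POU factors, occurred in 0 of 7 and in 1.74% of all windows. With 0 matches in the 7 windows, no overlap between the motifs arose.

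Levels differed between the genes far more than between the genotypes. Chat was read in every library at a high level, Ache, Bche and Chrnb1 in every library at moderate levels, and Slc5a7, Slc18a3 and Chrm3 stood at or near the limit of detection in several libraries. None of the 7 genes passed the test between Ko and Het libraries (limma on log2 of the normalized count plus 1, adjusted p from 0.296 to 0.990), with 0.814% of 19416 tested genes called. All 7 passed the filter of a mean of at least 10 normalized counts. 1 of 7, Chat, had an unadjusted limma p under 0.05, as did 13.6% of all tested genes, and edgeR and DESeq2 on the recovered reads called 0 of 7, with 0.386% and 5.93% of all genes called. The authors' deposited table has adjusted p-values of 0.109 to 0.951 for the 7 genes and thus also calls 0 of 7, against 8.19% of its genes with an adjusted p. The groups overlapped for all 7 genes, while 18.4% of all tested genes had groups that did not overlap. The log2 fold change was positive for 4 and negative for 3, while 47.2% of all tested genes were positive. The median of 0.65, against -0.05 over all tested genes, is the value of Chat itself and does not show a shift of the set.

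**Figure D1:**
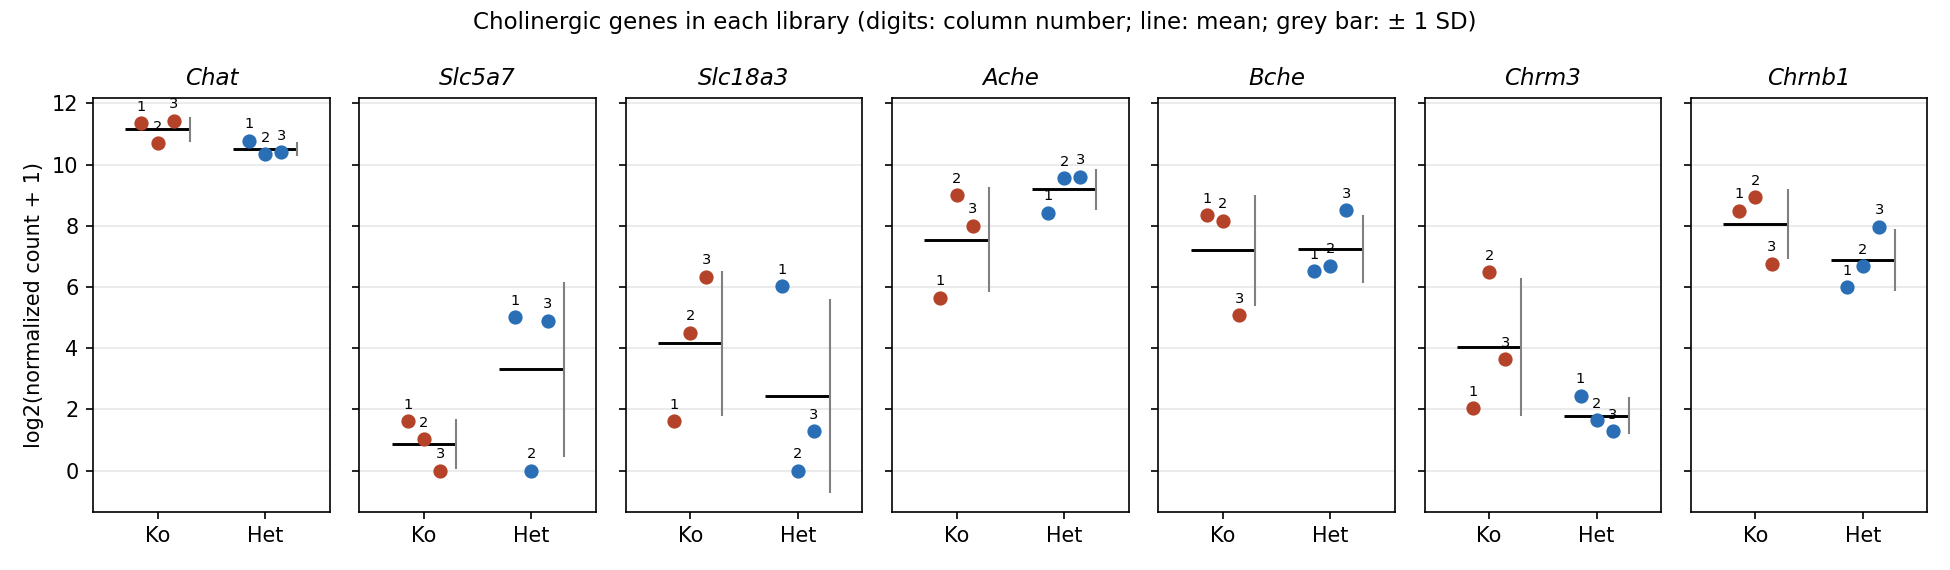
Level of each cholinergic gene on the log2(normalized count + 1) scale (y axis) in Ko and Het libraries (x axis); points are libraries numbered by column, horizontal lines are group means and grey bars ± 1 SD (n = 3 each). Chat points lie close together at the top, and those of Slc5a7, Slc18a3 and Chrm3 are scattered toward 0.

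Chat, the enzyme that makes acetylcholine, was at 2612, 1658 and 2765 normalized counts in Ko1, Ko2 and Ko3 and at 1757, 1292 and 1361 in Het1, Het2 and Het3. Ko1 and Ko3 lay above every Het library, while Ko2 lay below Het1. The means were 2345 ± 600 in Ko and 1470 ± 251 in Het libraries (SD, n = 3 each), from 6069 and 5905 reads. Chat had a log2 fold change of 0.65 ± 0.25 (SE), with a 95% interval from 0.09 to 1.21 and a limma adjusted p of 0.296. The authors' deposited table gives 0.67 ± 0.30 (SE) with an adjusted p of 0.152. The genotype difference therefore did not pass the test once adjusted over all tested genes. The unadjusted interval leaves out 0 and runs from almost no difference to one of more than 1 log2 unit. An unadjusted limma p under 0.05 was also reached by 13.6% of all tested genes.

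Relative to the tuft cell marker list, Chat stood at 9.51, 5.75 and 8.29 per 1000 marker counts in Ko1, Ko2 and Ko3 and at 6.67, 5.60 and 6.87 in Het1, Het2 and Het3. The marker sum includes Rgs13, and without that gene the ratio was 12.6, 7.91 and 11.7 in Ko1, Ko2 and Ko3 and 7.68, 6.41 and 8.21 in Het1, Het2 and Het3. On both ratios Ko2 lay among the Het libraries. Ko2 was also the library with the highest sum of fibroblast, endothelial and glial markers, 11740 normalized counts against 2879 and 1185 in Ko1 and Ko3 and 1212 to 1717 in Het libraries. The part of other cells in the Chat level was not tested, and in bulk samples fewer cells of a type and less RNA per cell cannot be told apart. The residual SD of Chat on the log2 scale was 0.33, close to the median of 0.29 over the 2313 tested genes with means from 1000 to 3000 normalized counts, and below the 1.08 to 2.81 of the other 6 cholinergic genes.

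The 5 genes whose profile over the 6 libraries was most like that of Chat, by the root-mean-square difference of centred log2 values, were Tspan5, Cib2, Tnk1, Mapk8 and Tmc8. Their differences from Chat ran from 0.08 for Tspan5 to 0.13 for Tmc8, against a median of 0.67 over the 12265 genes compared. As for Chat, the group means of these genes were higher in Ko, with log2 fold changes of 0.55 to 0.66, and none of the 5 passed the test (limma adjusted p from 0.352 to 0.558).

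The carriers that neurons use to take up choline and to fill vesicles were read far less than Chat. Slc5a7, the high-affinity choline transporter, had 2, 1 and 0 reads in Ko1, Ko2 and Ko3 and 56, 0 and 20 reads in Het1, Het2 and Het3. These reads correspond to 2.06, 1.04 and 0 normalized counts in Ko libraries and 31.3, 0 and 28.9 in Het libraries. Het1 and Het3 held nearly all its reads, and Het2, the second deepest library, held none, so the groups overlapped at the bottom. Where a library had 0 reads, about 3 reads is the upper 95% limit from counting error alone. That is 4.30 normalized counts in Ko3 and 2.13 in Het2. Over the groups, 3 reads in Ko against 76 in Het libraries gave a ratio of rates of 0.0583, with a 95% exact counting interval from 0.0118 to 0.177. That interval covers counting error only, and across libraries the log2 fold change of -2.43 ± 1.80 (SE) was not resolved (limma adjusted p = 0.614).

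Slc18a3, the vesicular acetylcholine transporter, was equally uneven. It stood at 2.06, 21.8 and 80.2 normalized counts in Ko1, Ko2 and Ko3 and at 64.3, 0 and 1.44 in Het1, Het2 and Het3, from 2, 21 and 56 reads in Ko and 115, 0 and 1 reads in Het libraries. High and low libraries occurred in both groups, and the log2 fold change of 1.72 ± 1.92 (SE) had a 95% interval from -2.57 to 5.999 (limma adjusted p = 0.760). On the recovered reads the log2 fold change was smaller, 0.62 in edgeR and 0.66 in DESeq2. Over the groups, 79 reads in Ko against 116 in Het libraries gave a ratio of rates of 1.01. Its 95% exact counting interval ran from 0.745 to 1.35 and covers counting error only. Reads from unspliced Chat RNA cannot be told apart from Slc18a3 where the genes overlap. Scaled to exon length, mean Chat exceeded mean Slc18a3 by 57.1 times in Ko and 56.6 times in Het libraries. The myeloid and dendritic marker list summed to 846, 3257 and 1822 normalized counts in Ko1, Ko2 and Ko3. In Het1, Het2 and Het3 that list summed to 54069, 5218 and 9376, so the groups did not overlap. Het1 held the most reads of Slc18a3 and Slc5a7, but the highest normalized Slc18a3 value was in Ko3. The part of myeloid or dendritic cells in these levels was not tested.

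Per kilobase of annotated exon, the order of mean levels in Ko libraries was Chat (820 ± 210 normalized counts per kilobase), Chrnb1 (148 ± 90.2), Ache (124 ± 105), Bche (34.4 ± 25.4), Slc18a3 (14.4 ± 16.8), Chrm3 (7.89 ± 10.8) and Slc5a7 (0.199 ± 0.199; SD, n = 3 each). In Het libraries it was Chat (514 ± 87.8), Ache (285 ± 111), Chrnb1 (64.2 ± 46.2), Bche (29.9 ± 24.8), Slc18a3 (9.08 ± 15.2), Slc5a7 (3.87 ± 3.36) and Chrm3 (0.619 ± 0.367). Chat stood above every other member in all 6 libraries. Below Chat, the ranges of neighbours in this order overlapped, except for Chrm3 and Slc5a7 in Ko libraries and Ache and Chrnb1 in Het libraries. Chrnb1 and Ache, for example, ran from 49.9 to 227 and from 22.6 to 232 per kilobase in Ko libraries. On this scale Chat exceeded 89.8% of tested genes, Ache 74.1%, Chrnb1 61.0%, Bche 35.0%, Slc18a3 16.3%, Chrm3 4.28% and Slc5a7 0.670%.

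**Figure D2:**
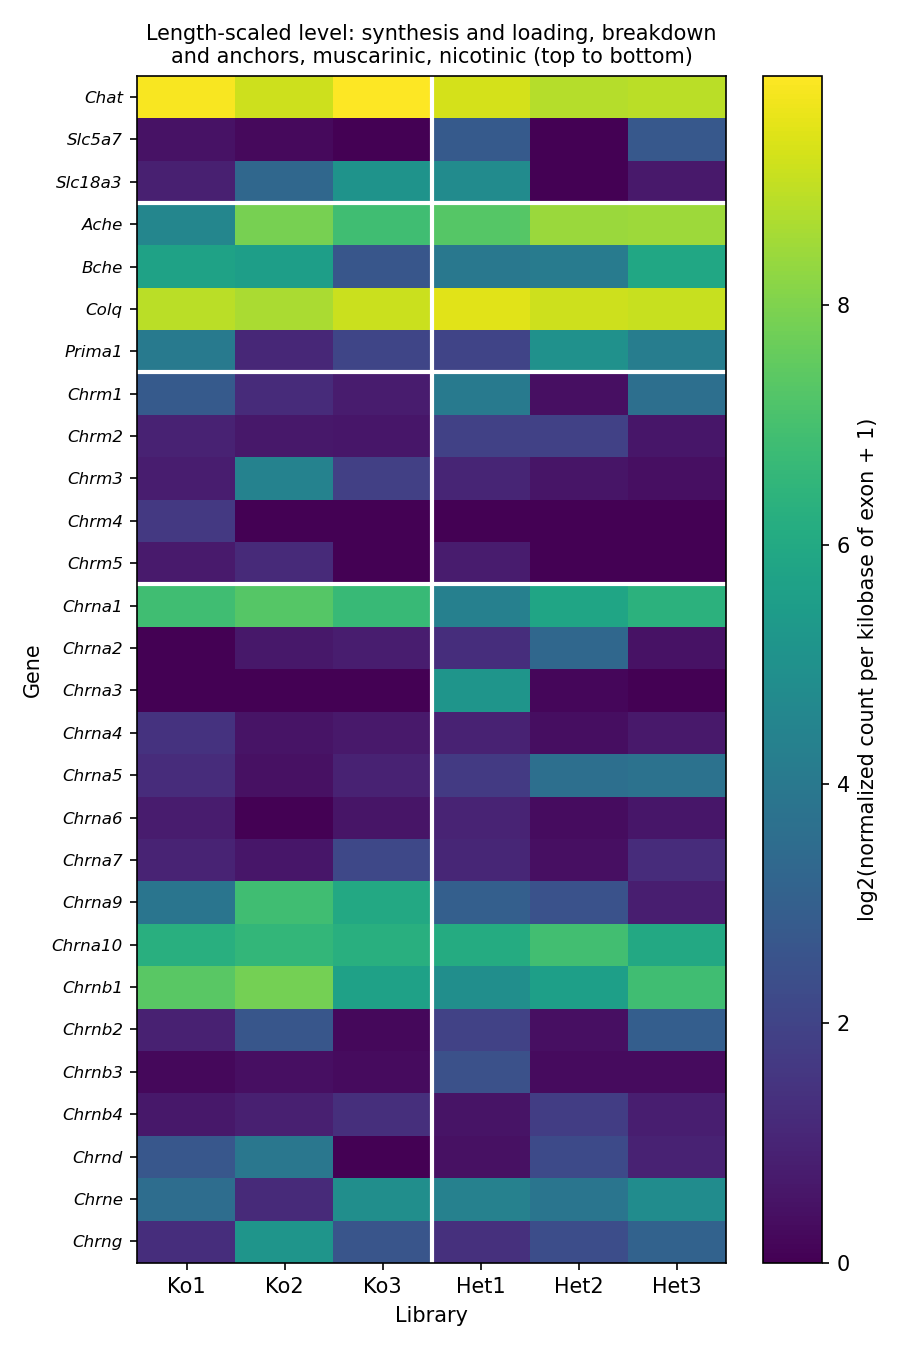
Colour gives the level as log2(normalized count per kilobase of exon + 1) for genes (rows: synthesis and loading, breakdown and anchors, muscarinic receptors, nicotinic subunits) in the 3 Ko and 3 Het libraries (columns). Chat and Colq are the brightest rows in all libraries, and single bright cells such as Chrna3 in Het1 and Chrm3 in Ko2 mark genes read mainly in 1 library.

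Ache, the acetylcholinesterase that ends cholinergic signals, was the more abundant cholinesterase gene in Het libraries. It was at 49.4, 509 and 256 normalized counts in Ko1, Ko2 and Ko3 and at 344, 750 and 781 in Het1, Het2 and Het3. Ko1 and Ko3 lay below every Het library and Ko2 between Het1 and Het2. The means were 271 ± 230 in Ko and 625 ± 243 in Het libraries (SD, n = 3 each), and the log2 fold change of -1.65 ± 0.76 (SE) had a 95% interval from -3.33 to 0.04 (limma adjusted p = 0.380). Without Ko1 the log2 fold change was -0.70 and without Ko2 -2.37, so the estimate rested on single libraries. Among markers of other cells, the Aire-stage medullary list summed to 45357, 58712 and 37545 normalized counts in Ko1, Ko2 and Ko3 and to 56810, 145682 and 133299 in Het1, Het2 and Het3, and Ache was highest in Het2 and Het3. The erythroid and megakaryocyte list summed to 10879 in Het3 and to 272 to 743 in the other 5 libraries, with 272 in Het2. The part of Aire-stage, erythroid or megakaryocyte cells in the Ache level was not tested.

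Bche, butyrylcholinesterase, which also splits acetylcholine, was at 323, 285 and 32.9 normalized counts in Ko1, Ko2 and Ko3 and at 90.6, 103 and 364 in Het1, Het2 and Het3. Each group held high and low libraries, and the log2 fold change was -0.05 ± 0.93 (SE; 95% interval from -2.12 to 2.02; limma adjusted p = 0.990). Differences of up to 2 log2 units in either direction are within that interval. In Ko1, Bche exceeded Ache (323 against 49.4), as a count not scaled to length, whereas Ache was the higher in the other 5 libraries. Colq, the collagen tail that anchors acetylcholinesterase, was abundant throughout, at 1528 ± 238 normalized counts in Ko and 1943 ± 290 in Het libraries (SD, n = 3 each; log2 fold change -0.35 ± 0.22 SE, limma adjusted p = 0.541). Per kilobase of exon, mean Colq was 479 in Ko and 610 in Het libraries, above mean Ache in both groups. Prima1, the membrane anchor of the same enzyme, was at 14.4, 1.04 and 2.86 normalized counts in Ko libraries and 2.80, 28.4 and 15.9 in Het libraries (limma adjusted p = 0.771).

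Chrm3, a muscarinic receptor that couples to Gq, was low except in 1 library. It was at 3.09, 88.1 and 11.5 normalized counts in Ko1, Ko2 and Ko3 and at 4.47, 2.13 and 1.44 in Het1, Het2 and Het3, from 3, 85 and 8 reads in Ko and 8, 3 and 1 reads in Het libraries. Ko2 held 85 of the 96 reads in the Ko group, Ko3 was above all Het libraries, and Ko1 lay among them. The log2 fold change was 2.25 ± 1.57 (SE; 95% interval from -1.25 to 5.75; limma adjusted p = 0.585), and without Ko2 Chrm3 fell under the filter on low values. Ko2 was also the library with 11740 normalized counts of fibroblast, endothelial and glial markers, as given above; their part in the Chrm3 level was not tested. Of the other muscarinic receptors, Chrm1 was at 38.1, 8.29 and 4.30 normalized counts in Ko libraries and 101, 2.13 and 70.7 in Het libraries (limma adjusted p = 0.805), and Chrm2, Chrm4 and Chrm5 fell under the filter.

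Chrnb1, the beta subunit of the muscle-type nicotinic receptor, was at 359, 490 and 107 normalized counts in Ko1, Ko2 and Ko3 and at 62.6, 102 and 251 in Het1, Het2 and Het3. Ko1 and Ko2 lay above every Het library and Ko3 between Het2 and Het3. The means were 319 ± 194 in Ko and 138 ± 99.5 in Het libraries (SD, n = 3 each), and the log2 fold change of 1.18 ± 0.73 (SE) had a 95% interval from -0.44 to 2.80 (limma adjusted p = 0.534). Its partner Chrna1, the alpha subunit of the same receptor, was at 509, 684 and 444 normalized counts in Ko1, Ko2 and Ko3 and at 82.2, 246 and 359 in Het1, Het2 and Het3. For Chrna1 the groups did not overlap, but the difference did not pass the test (log2 fold change 1.46 ± 0.55 SE, limma adjusted p = 0.276).

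The remaining muscle-type subunits were sparse. Chrnd was at 16.5, 43.5 and 0 normalized counts in Ko1, Ko2 and Ko3 and 1.12, 11.4 and 2.89 in Het1, Het2 and Het3. Chrng, the subunit of the fetal form, was at 4.12, 96.3 and 14.3 in Ko libraries and 4.47, 11.4 and 21.6 in Het libraries, and Chrne, the subunit of the adult form, at 17.5, 2.07 and 47.3 in Ko libraries and 31.3, 22.0 and 44.7 in Het libraries. Limma adjusted p-values of these 3 genes ran from 0.749 to 0.870. Thymic myoid cells also carry this receptor. The muscle cell marker list summed to 2322, 10469 and 21519 normalized counts in Ko1, Ko2 and Ko3 and 1060, 9245 and 5069 in Het1, Het2 and Het3. Het1 had both the lowest muscle sum and the lowest Chrnb1, while Ko3, with the highest muscle sum, had the lowest Chrnb1 of the Ko group. All 15 muscle markers were tested and limma called 0, edgeR 0 and DESeq2 1 higher (Myog) and 1 lower (Ttn). Myog, a transcription factor of muscle differentiation, was at 1138, 794 and 1633 normalized counts in Ko1, Ko2 and Ko3 and at 350, 423 and 564 in Het1, Het2 and Het3, so it was higher in every Ko library (limma adjusted p = 0.111, edgeR 0.136, DESeq2 0.00464). The muscle list as a whole was mixed, with 10 positive and 5 negative log2 fold changes. Groups did not overlap for 2 of its 15 markers, against 18.4% of all tested genes. The part of muscle-like cells in the Chrnb1 and Chrna1 levels was not tested.

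**Figure D3:**
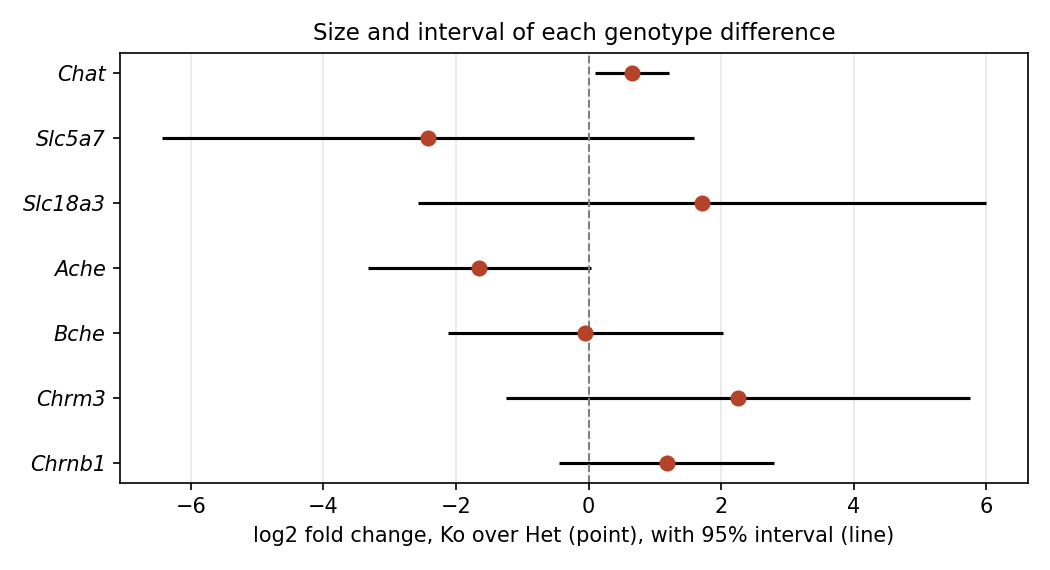
Points are log2 fold changes, Ko over Het, on the log2(normalized count + 1) scale (x axis) for the 7 genes (rows) and lines their 95% intervals from limma. The interval of Chat, 0.09 to 1.21, is the narrowest and those of Slc5a7, Slc18a3 and Chrm3 are the widest.

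Of the 16 nicotinic subunit genes, 10 passed the filter and 0 were called; 6 had positive and 4 negative log2 fold changes, with a median of 0.39 against -0.05 over all tested genes. Chrna9 was at 24.7, 212 and 115 normalized counts in Ko1, Ko2 and Ko3 and at 12.9, 8.52 and 1.44 in Het1, Het2 and Het3. The groups did not overlap, and limma did not call the gene (log2 fold change 3.65 ± 1.27 SE, adjusted p = 0.243; edgeR adjusted p = 0.253), whereas DESeq2 did (adjusted p = 0.0203). Chrna5 was at 4.12, 1.04 and 2.86 normalized counts in Ko libraries and 6.71, 34.1 and 37.5 in Het libraries. For Chrna5 the groups did not overlap either, and limma did not call it (log2 fold change -2.67, adjusted p = 0.450). Chrna10, which pairs with Chrna9 in the receptor of cochlear hair cells, was at 204 ± 25.8 in Ko and 211 ± 80.9 in Het libraries (SD, n = 3 each; limma adjusted p = 0.995). Chrna3 was at 183 normalized counts in Het1 and at 0 to 0.710 in the other 5 libraries, a level that 1 library carried; it was named after its values were seen.

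Proteins that assemble or modulate nicotinic receptors had 11 tested members of 13, with 0 called, 3 positive and 8 negative log2 fold changes and a median of -0.87. Lynx1, a membrane-anchored modulator of nicotinic receptors, was at 103, 213 and 208 normalized counts in Ko1, Ko2 and Ko3 and at 476, 613 and 499 in Het1, Het2 and Het3. Every Ko library lay below every Het library (log2 fold change -1.66 ± 0.43 SE; limma adjusted p = 0.123, edgeR 0.189, DESeq2 0.0162). Slurp1, a secreted relative of Lynx1, was at 11.3, 36.3 and 0 in Ko libraries and 102, 164 and 945 in Het libraries (log2 fold change -5.03 ± 1.43 SE; limma adjusted p = 0.153, edgeR 0.230, DESeq2 4.68e-04). Lypd1, of the same list, was at 135, 81.8 and 127 in Ko libraries and 201, 638 and 290 in Het libraries (limma adjusted p = 0.254). The authors' deposited table gives adjusted p-values of 0.00138 for Lynx1 and 0.00577 for Slurp1. Over all pathway lists, that table also has values under 0.05 for Lypd1 (0.0275), Chrna9 (0.00476), Flvcr2 (1.57e-04), Syt7 (1.74e-07), Stx3 (0.0298) and Itpr2 (0.0471). Of all its genes with an adjusted p, 8.19% were under 0.05.

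Genes of choline transport and phosphorylation and of acetyl-CoA supply ranged widely in mean level, from 50.9 (Pcyt1b) to 2929 (Pdhb) normalized counts. Their log2 fold changes in limma ran from -3.91 (Flvcr2) to 1.29 (Pcyt1a). Of 13 choline transport and phosphorylation genes all were tested, 0 were called and the median log2 fold change was 0.11. Chka, choline kinase alpha, was at 2794 ± 418 normalized counts in Ko and 2371 ± 527 in Het libraries, and Slc44a2, of the choline transporter-like family, at 1693, 1829 and 1762 in Ko libraries and 2003, 1496 and 1199 in Het libraries (limma adjusted p = 0.680 and 0.772). Flvcr2 was at 4.12, 3.11 and 15.8 normalized counts in Ko libraries and 133, 138 and 63.5 in Het libraries, without overlap (log2 fold change -3.91 ± 1.09 SE; limma adjusted p = 0.146, DESeq2 0.0113). Slc44a3 was higher and Slc44a4 lower in each Ko than in each Het library, with log2 fold changes of 0.83 ± 0.31 and -1.19 ± 0.40 (SE; limma adjusted p = 0.270 and 0.220). Among 9 acetyl-CoA supply genes 0 were called and the median was -0.23; Acly, which makes cytosolic acetyl-CoA, was at 1930, 3269 and 3865 in Ko libraries and 2566, 2402 and 1896 in Het libraries (limma adjusted p = 0.619).

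Routes of release were mixed. Of 6 organic cation transporter genes 4 were tested and 0 called. Slc22a5 was read in all libraries, at 575, 291 and 772 normalized counts in Ko and 1019, 540 and 444 in Het libraries. Slc22a4 was at 1.03, 1.04 and 32.9 normalized counts in Ko libraries and 24.6, 339 and 41.8 in Het libraries. The groups overlapped for Slc22a4, and limma did not call it (log2 fold change -3.79 ± 1.56 SE, adjusted p = 0.326). Of 23 vesicle release genes 21 were tested and 0 called, 7 with positive and 14 with negative log2 fold changes (median -0.48). The neuroendocrine marker list summed to 1830, 3249 and 1117 normalized counts in Ko libraries and 2990, 4774 and 4395 in Het libraries, and the groups overlapped. Of its 7 tested genes limma called 0 and DESeq2 called 2 lower. The part of neuroendocrine cells in the levels of the vesicle release genes was not tested. Syt7, a calcium sensor of exocytosis, was at 6.17, 5.18 and 2.86 normalized counts in Ko libraries and 74.4, 128 and 83.7 in Het libraries (log2 fold change -4.08 ± 1.07 SE; limma adjusted p = 0.124, edgeR 0.168, DESeq2 0.00425). Syt1 and the syntaxin gene Stx3 were likewise lower in each Ko than in each Het library, with log2 fold changes of -0.59 ± 0.21 and -0.57 ± 0.21 (SE; limma adjusted p = 0.255 and 0.280), while Vamp2 was at 2207, 1956 and 2958 in Ko and 2381, 2452 and 1968 in Het libraries.

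Downstream of Gq-coupled receptors, 9 of 10 genes were tested, 0 were called and the median log2 fold change was 0.34. Itpr2, an inositol trisphosphate receptor of the calcium store, was at 8214, 7461 and 9631 normalized counts in Ko libraries and 6440, 5115 and 5217 in Het libraries (log2 fold change 0.59 ± 0.16 SE; limma adjusted p = 0.131, DESeq2 0.0247). Plcb3 and Gna11 were likewise higher in every Ko library, by 0.74 ± 0.26 and 0.92 ± 0.35 on the log2 scale (SE; limma adjusted p = 0.243 and 0.290). Of 10 transcription factors of cholinergic neurons, 6 were tested and 0 called; Isl1, a motor neuron factor, was at 1011, 738 and 666 in Ko libraries and 648, 422 and 341 in Het libraries (limma adjusted p = 0.339). Over the 112 genes of all pathway lists, 92 were tested and limma called 0, with 17, or 18.5%, at an unadjusted p under 0.05 against 13.6% of all tested genes. In 21 of the 92, or 22.8%, the groups did not overlap, against 18.4% of all tested genes. EdgeR called 0 and DESeq2 called 2 higher (Chrna9, Itpr2) and 4 lower (Lynx1, Slurp1, Flvcr2, Syt7), which is 6.52% of the 92 against 5.93% of all tested genes. These shares lay near those of all genes.

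**Figure D4:**
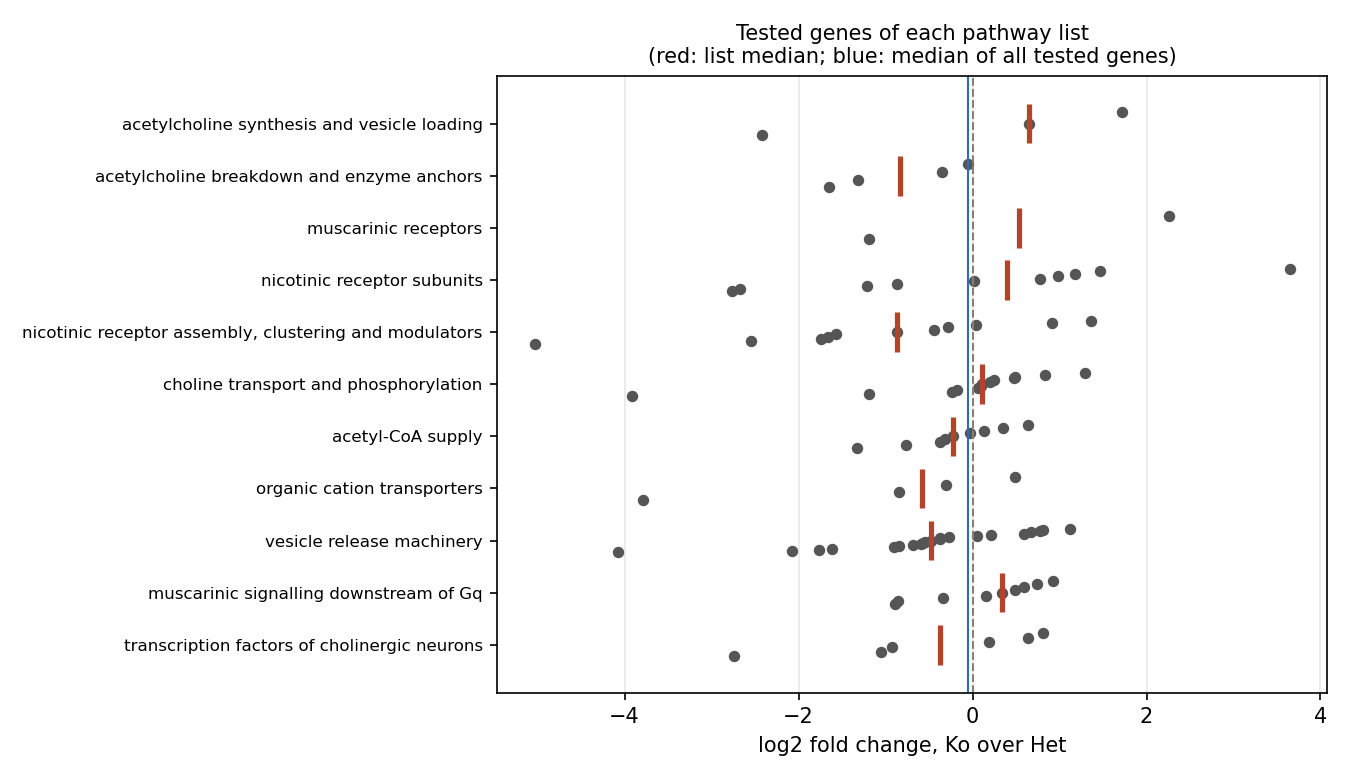
Each point is the log2 fold change, Ko over Het, of a tested gene (x axis) in its pathway list (rows); red bars are list medians and the blue line the median of all tested genes, -0.05. List medians run from -0.87 for nicotinic assembly and modulator genes to 0.65 for synthesis and vesicle loading genes.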

How the data were processed

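STAR 2.7.9a, build GRCm39 and DESeq2 are named in the submitters' processing notes, with read counter, annotation, strandedness and filters not given in the sources used here. In the deposited expression table each value is a signal: a gene's count over the size factor of its library. A deposited table of the authors' own comparison has log2 fold changes with standard errors, a Wald score and p-values. Values were whole multiples of 1 read within 0.01 reads (100% of those above 0), so reads were recovered. Symbols were found for 55144 of 55471 identifiers.

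Genes with a mean of at least 10 were tested with limma 3.58.1 in R 4.3.3 (log2(value + 1), trend, genotype only, two-sided, Benjamini-Hochberg at 0.05). On this scale fold changes of low genes can be smaller or larger than in count models. Slc5a7 had -2.43 against -4.25 in DESeq2, and Slc18a3 had 1.72 against 0.66. EdgeR 4.0.16 and DESeq2 1.42.0 on recovered reads, other pseudocounts, filters and scalings, and leaving out each library were alternatives. Limma was tested on simulated data. Exon lengths came from GENCODE M21 (GRCm38). The members and lists were chosen with earlier results of these data known. Named pathway genes are the 3 of smallest p and 2 of highest mean per list, and not all are described by library. Those left out are Agrn, Slc47a1, Slc25a1, Acss1, Vamp8, Gbx1 and Mnx1, with negative log2 fold changes, and Pdhb, Plcb2 and Rest, with positive ones. Muscle-type subunits, Chrna10, Chrna3 and the muscarinic receptors are given outside this rule.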

Additional observations from a re-analysis of the deposited data

How the results depend on the processing

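None of the 7 cholinergic genes was called under any of the alternatives run, over 127 values, and the lowest adjusted p was 0.129, for Chat in DESeq2. The sign was kept under every alternative for Chat (log2 fold change 0.51 to 0.88), Slc5a7, Slc18a3, Ache, Chrm3 and Chrnb1. Bche, near 0, changed sign to 0.029 with a pseudocount of 20, 0.14 with quantile scaling, 0.24 in edgeR and 0.21 in DESeq2, and ran from -0.62 to 1.01 when 1 library was left out; the cause was not tested. Slc5a7 fell under a filter and had no value with a mean of at least 50 or without Het1 or Het3. Slc18a3 had none with a mean of at least 50, and Chrm3 had none with that filter or without Ko2. DESeq2 gave no adjusted p for Slc5a7 and Chrm3.

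Over the whole table, 56 genes were called higher and 102 lower. TMM scaling gave 37 higher, robust eBayes 89 higher, edgeR 24 and 51, and DESeq2 383 and 768. Leaving out 1 library gave 0 to 47 higher and 0 to 94 lower, with 0 of either without Het3. Of the pathway genes, limma called 0 and DESeq2 called 2 higher and 4 lower. With a replicate block by column number, 25 genes were higher and 62 lower, and 0 of the 7 genes were called. The numbers do not pair the columns: the deviations of same-numbered libraries had correlations of 0.025, 0.021 and -0.015.

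Over 35 other named pathway genes, 637 of 652 values kept their direction and side of the threshold, and 6 were called only under the alternative, all in DESeq2. With 1 library left out, the log2 fold change crossed 0 for Agrn (-0.51 to 0.019), Pdhb (-0.077 to 0.28), Slc22a5 (-0.61 to 0.091), Vamp2 (-0.12 to 0.18) and Rest (-0.23 to 0.54), and it was -0.033 for Vamp2 with TMM scaling; the cause was not tested. Slc5a7, Slc18a3 and Chrm3 rest on 0 to 115 reads per library, so differences in them are limited by depth and by the spread between libraries.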
